A study of Mus musculus with 7 samples.

Results

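The miR-101 family of mature 3p arms, mmu-miR-101a-3p and mmu-miR-101b-3p (miR-101a-3p and miR-101b-3p from here on), was described across CD8+ T cells of the mouse spleen. Its 2 members were taken by name from the 1978 mature miRNAs listed, and both passed the filter on low values that left 288 miRNAs for testing. The family was selected on measured values, since earlier results on these same libraries had shown miR-101a-3p to differ with age and with subset. The levels and fold changes of the members are therefore given as a description, without p-values. Whether the fit called a member in a comparison is stated only beside the share of all tested miRNAs called there, and nothing is read from it. The interaction of age and subset is given with its p-value.

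All libraries came from gBT-I mice, whose CD8+ T cells carry a transgenic receptor for a herpes simplex virus glycoprotein B peptide, so every group shares that 1 receptor. The groups were neonatal VM (2 libraries), neonatal TN (1 library), adult VM (2 libraries) and adult TN (2 libraries), where VM stands for virtual memory cells sorted as CD44hi CD122hi and TN for true naive cells sorted as CD44lo CD122lo. The labels give neither an age in days nor the number of animals behind a library, so the spread between replicates may be technical. Totals ran from 1577031 to 3278451 estimated counts per library.

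A miRNA guides Argonaute to messenger RNAs that pair with its seed, bases 2 to 8 from its 5′ end, and lowers their output. MiR-101 is best known as a repressor of EZH2, the methyltransferase of Polycomb repressive complex 2 that places the repressive mark on lysine 27 of histone H3. In human T cells, miR-101 and miR-26a have been tied to the control of EZH2, and in mouse T cells miR-101 takes part with Roquin in holding down the costimulatory receptor Icos.

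The mature sequences are shown because the members differ in where they start and in only 1 internal base, which bears on how reads can be told apart. They are RefSeq sequences on GRCm38.p6, written 5′ to 3′ with the seed in capitals, and miR-101c and miR-144-3p are set beside them as the closest relatives.
miR-101a-3p: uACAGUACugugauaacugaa
miR-101b-3p: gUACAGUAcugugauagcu
miR-101c: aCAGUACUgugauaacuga
miR-144-3p: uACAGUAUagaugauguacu

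As annotated, miR-101b-3p starts 1 base earlier than miR-101a-3p, so the seeds read ACAGUAC in miR-101a-3p and UACAGUA in miR-101b-3p. Over the 18 bases they share, the difference was A16G, counted from 1 at the 5′ end of miR-101a-3p with the base of miR-101a-3p first. MiR-101c equals bases 2 to 20 of miR-101a-3p, so a read of that stretch fits both names. Of the 1679 listed miRNAs with a RefSeq sequence, 3 hold ACAGUA within the seed (0.179%), namely the 2 members and miR-144-3p, an erythroid miRNA. MiR-144-3p had at most 3 counts in a library and 6 over all 7.

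The hairpins are shown to set out which bases in and around the 3p arms they share, with the annotated 3p arm in capitals.
Mir101a: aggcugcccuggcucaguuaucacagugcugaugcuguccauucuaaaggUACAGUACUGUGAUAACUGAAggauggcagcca
Mir101b: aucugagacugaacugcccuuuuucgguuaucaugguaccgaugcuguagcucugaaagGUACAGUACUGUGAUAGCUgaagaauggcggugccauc

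The hairpins share an unbroken run of 20 bases, aaagguacaguacugugaua, that ends just before the differing base. Reads that lie wholly within it cannot be assigned to 1 locus. From the first base of miR-101a-3p, 15 bases precede the difference. Estimated counts with a fraction occurred for miR-101a-3p in 4 of 7 libraries and for miR-101b-3p in 5 of 7. In adult VM replicate 1 and adult TN replicate 1 miR-101b-3p had a fraction (4496.5 and 1633.5) and miR-101a-3p had none (4165 and 1193). A fraction therefore need not stem from reads that fit both members. How the authors split reads that fit more than 1 name is not given in the sources used here.

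The loci lie on different chromosomes. On GRCm38.p6, Mir101a occupies chromosome 4, 101346945 to 101347027, on the minus strand, within an exon of the lincRNA E130102H24Rik (101346531 to 101347103), with Jak1 and Ak4 as the nearest protein-coding genes. Mir101b occupies chromosome 19, 29135279 to 29135375, on the plus strand, inside Rcl1 (29101375 to 29143929) and outside its annotated exons, so in an intron of that gene. No exon of another gene overlapped Mir101b in GENCODE M21.

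Within either subset, miR-101a-3p was lower in neonatal than in adult cells. Its level in CPM, counts scaled to a common library size with trimmed mean of M-values (TMM) factors, was 324 and 459.9 CPM in the neonatal VM libraries, 213 CPM in the neonatal TN library, 1677 and 2956 CPM in the adult VM libraries and 644 and 589.8 CPM in the adult TN libraries. In this scaled CPM the libraries of the 4 groups did not overlap, and adult VM stood highest, then adult TN, neonatal VM and neonatal TN. As shares of all counts, neonatal VM (0.0416% and 0.0585%) and adult TN (0.0580% and 0.0461%) overlapped. How many of all tested miRNAs have groups that do not overlap was not counted.

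MiR-101b-3p spanned a narrower range and ran in another order. It stood at 1124 and 1515 CPM in the neonatal VM libraries, 1152 CPM in the neonatal TN library, 1809.8 and 2899 CPM in the adult VM libraries and 882 and 814 CPM in the adult TN libraries. Adult VM was again highest, but adult TN was lowest. The neonatal TN library lay between the neonatal VM replicates, so those neighbours did not differ beyond their spread.

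**Figure D1:**
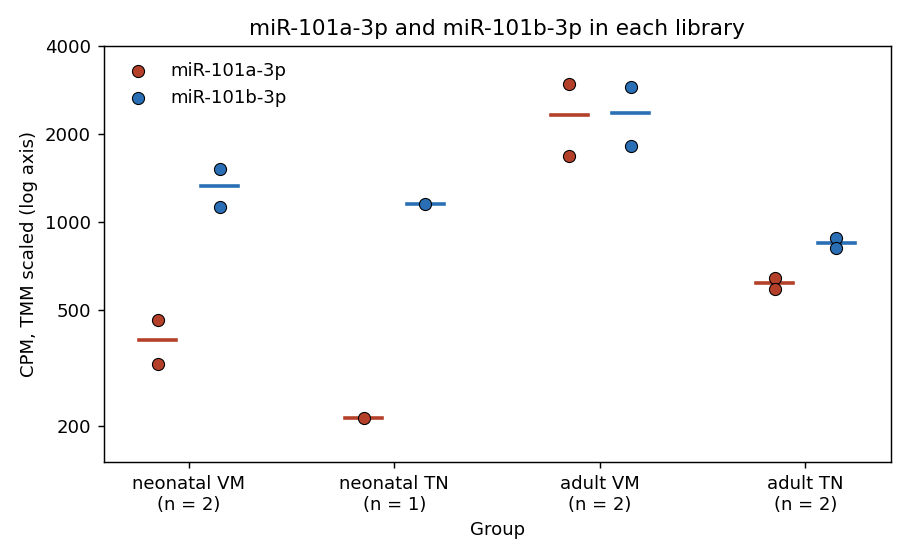
Level of miR-101a-3p (red) and miR-101b-3p (blue) in CPM scaled by TMM factors, on a log axis, in each library of the 4 groups; points are libraries and short lines are group means. Both members peak in adult VM cells, while miR-101a-3p falls to 213 CPM in the neonatal TN library and miR-101b-3p stays at 1152 CPM there.

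As shares of all counts in the neonatal TN library, which has no replicate, miR-101a-3p took 0.0230% (95% Wilson interval 0.0213 to 0.0248%) and miR-101b-3p took 0.124% (0.120 to 0.128%). The libraries carry no molecular identifiers, so such intervals and floors cover only counting error and not repeated amplification of a molecule. Replicates of adult VM lay furthest apart, by 1.76-fold for miR-101a-3p and 1.60-fold for miR-101b-3p, against at most 1.42-fold in neonatal VM and 1.09-fold in adult TN. By mean CPM over all 7 libraries, miR-101b-3p ranked 52nd of the 288 tested miRNAs with 1457 CPM and miR-101a-3p 63rd with 980.5 CPM.

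The balance between the members differed with age, and that value needs no scaling because both are counted in the same library. It does depend on how reads that fit both members were split, which is not given in the sources used here. MiR-101a-3p made up 22.4% and 23.3% of the pair's counts in the neonatal VM libraries and 15.6% in the neonatal TN library, against 48.1% and 50.5% in the adult VM libraries and 42.2% and 42.0% in the adult TN libraries. Every neonatal library lay below every adult library, and within each age the VM libraries lay above the TN libraries. The ratio of miR-101a-3p to miR-101b-3p was 0.185 in neonatal TN and 0.727 ± 0.00445 in adult TN (SD, n = 2), a 3.93-fold lower ratio in the neonatal cells. It was 0.296 ± 0.0103 in neonatal VM and 0.973 ± 0.0661 in adult VM (SD, n = 2 each), 3.28-fold lower in the neonatal cells. The ratio differed less by subset, 1.34-fold higher in adult VM than in adult TN and 1.60-fold higher in neonatal VM than in neonatal TN.

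**Figure D2:**
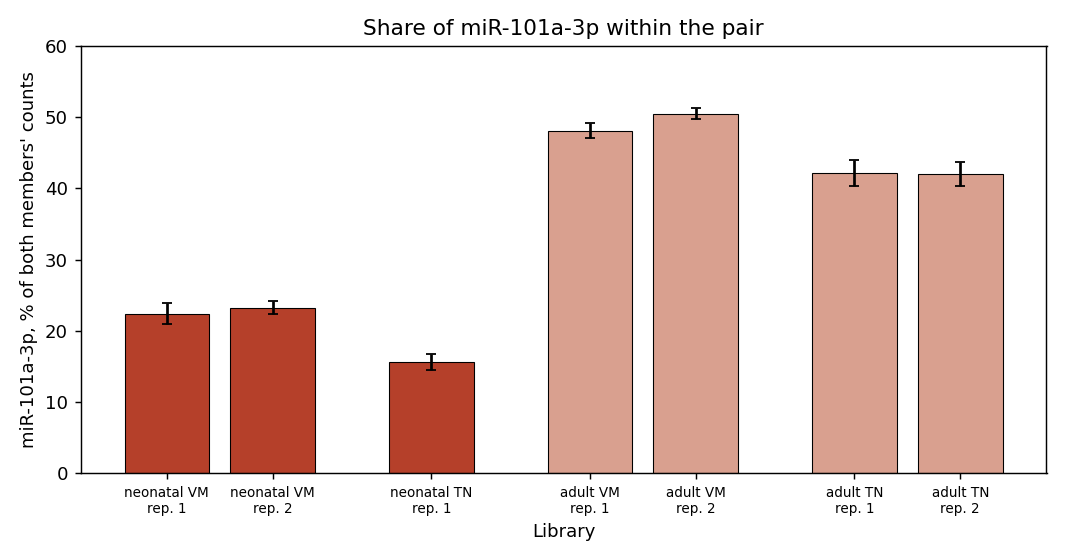
Share of miR-101a-3p in the summed counts of miR-101a-3p and miR-101b-3p, in percent, for each library; error bars are 95% Wilson intervals for counting error. The 3 neonatal libraries (dark bars) lie between 15.6% and 23.3% and the 4 adult libraries (pale bars) between 42.0% and 50.5%.

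The other arms of the hairpins, called 5p and usually degraded, were far rarer. MiR-101a-5p had 9 and 24 counts in the neonatal VM libraries, 4 in the neonatal TN library, 38 and 65 in the adult VM libraries and 19 and 18 in the adult TN libraries. Like its 3p partner it was highest in adult VM and lowest in neonatal TN. In TMM-scaled CPM it stood at 4.45 and 6.27, 1.24, 15.3 and 22.5, and 10.3 and 7.70 CPM in the same order. As a share of all counts it overlapped between neonatal VM (5.71e-04% and 7.98e-04%) and adult TN (9.24e-04% and 6.02e-04%). It made up 0.581% to 1.57% of the Mir101a arm counts. The 95% Wilson intervals of the neonatal TN library (0.226 to 1.48%) and of adult TN replicate 1 (1.01 to 2.44%), which hold those extremes, overlapped. That of adult VM replicate 2 (0.592 to 0.960%) lay below that of adult TN replicate 1 but overlapped that of adult TN replicate 2 (0.817 to 2.03%). MiR-101b-5p had 1 count in adult VM replicate 1 and 0 in the other libraries, where 3 counts would be 0.915 to 1.90 CPM by library totals. MiR-101c was counted in adult VM alone, at 3 and 3.5 estimated counts.

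Between neonatal and adult TN cells, the question was how the family differs with age in true naive cells. MiR-101a-3p was 2.89-fold lower in neonatal TN (log2 fold change -1.53, SE 0.37), while miR-101b-3p stood 1.36-fold above adult TN (log2 fold change 0.44, SE 0.30) and did not pass. MiR-101a-5p was lower by a larger fitted factor on 4 counts (log2 fold change -2.79, SE 0.73). Of the 2 members, 1 was called by edgeR's quasi-likelihood test at an adjusted p of at most 0.05, where 47.9% of all tested miRNAs were called, 26.4% higher and 21.5% lower. The neonatal arm is 1 library, assumed to vary like the others, and with library totals alone as scaling miR-101b-3p was called higher (log2 fold change 0.80, with the median of all tested miRNAs at 0.41 in place of 0.04). It was also called higher without adult VM replicate 2 (0.40).

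Between neonatal and adult VM cells, both members were lower in the neonatal cells. MiR-101a-3p was 5.90-fold lower (log2 fold change -2.56, SE 0.30) and miR-101b-3p 1.78-fold lower (log2 fold change -0.83, SE 0.25). MiR-101a-5p followed at -1.77 (SE 0.43). Both members were called, beside 53.8% of all tested miRNAs, 22.9% higher and 30.9% lower. The call for miR-101b-3p ended under library totals (-0.32, with the median of all tested miRNAs at 0.43 in place of -0.08), with a filter at 100 CPM (-0.62), without adult TN replicate 2 (-0.83) and without neonatal VM replicate 1 (-0.61). As shares of all counts, miR-101b-3p took 0.144% and 0.193% in neonatal VM and 0.166% and 0.256% in adult VM, which overlap.

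Between adult VM and adult TN cells, both members were higher in VM. MiR-101a-3p was 3.76-fold higher (log2 fold change 1.91, SE 0.29) and miR-101b-3p 2.78-fold higher (log2 fold change 1.47, SE 0.25). MiR-101a-5p was at 1.09 (SE 0.42) and did not pass. Both members were called, beside 38.9% of all tested miRNAs (23.3% higher and 15.6% lower), and neither was called without adult TN replicate 2 (1.80 and 1.37), where 23 miRNAs were called in place of 112.

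Between neonatal VM and neonatal TN cells, neither member was called, beside 9.72% of all tested miRNAs, 3.12% higher and 6.6% lower. MiR-101a-3p was at a log2 fold change of 0.88 (SE 0.36) and miR-101b-3p at 0.20 (SE 0.30). MiR-101a-5p was at 2.11 (SE 0.75) and did not pass. MiR-101a-3p was called higher with upper quartile factors (1.26), with no filter (0.94) and without adult VM replicate 1 (0.88) or 2 (0.86).

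**Figure D3:**
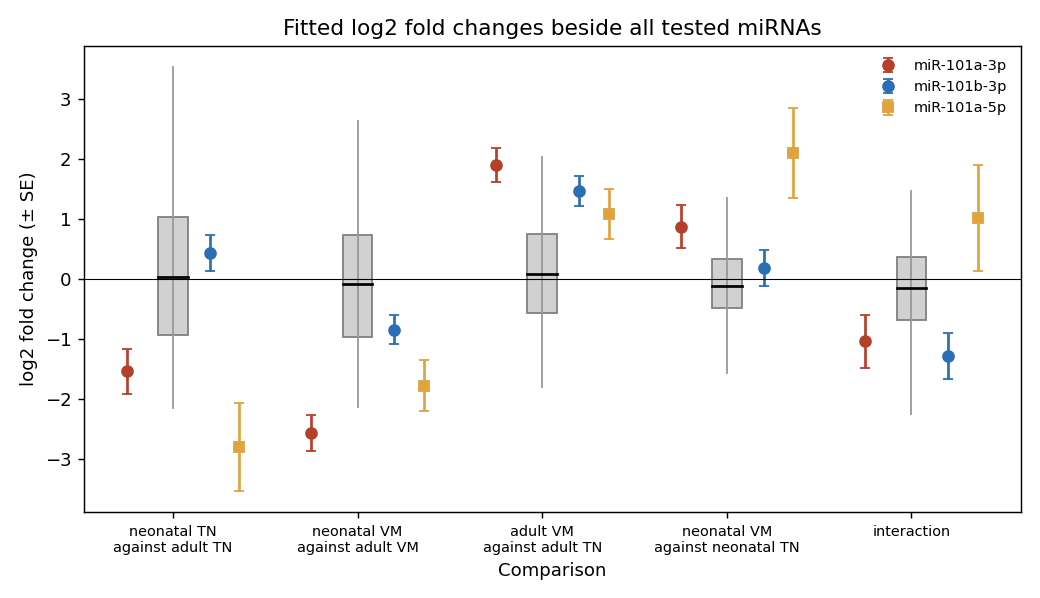
Fitted log2 fold changes with SE of miR-101a-3p (red), miR-101b-3p (blue) and miR-101a-5p (yellow squares) in the 4 comparisons and the interaction; grey boxes span the 25th to 75th percentile of all 288 tested miRNAs, grey lines the 5th to 95th and black bars the median. MiR-101a-3p lies below the grey box in both age comparisons, and miR-101b-3p lies above 0 in TN and below 0 in VM.

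The interaction asked whether the difference between VM and TN cells depends on age. It is the log2 fold change of VM over TN in neonatal cells minus that in adult cells. MiR-101a-3p had an interaction of -1.03 (SE 0.44, edgeR adjusted p = 0.196) and miR-101b-3p one of -1.28 (SE 0.38, edgeR adjusted p = 0.0587), so neither passed, beside 7.99% of all tested miRNAs, 1.74% higher and 6.25% lower. Over the alternatives the adjusted p of miR-101b-3p ran from 2.33e-05 to 0.393 and that of miR-101a-3p from 4.08e-04 to 0.5595. Both passed without adult VM replicate 1 (-1.35 and -1.55) and with no filter (-0.965 and -1.21), and miR-101b-3p also passed without adult VM replicate 2 (-0.80) and in the fit with a replicate block (-1.41).

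Other miRNAs reported to target EZH2, mostly in human cancer cells, form the set closest to miR-101 in known function. The list was chosen with earlier results of these data known, so its adjusted p-values are given as a description. Of 10 listed, 7 were tested, and miR-124-3p, miR-214-3p and miR-217-5p had 0 counts in every library. MiR-26a-5p, the most abundant of them, stood at 38560 and 38751 CPM in neonatal VM, 51837 CPM in neonatal TN, 58259 and 47044 CPM in adult VM and 55238 and 59673 CPM in adult TN. Against adult VM it was lower in neonatal VM, at a log2 fold change of -0.45 with an SE of 0.17 (edgeR adjusted p = 0.0407), and was not called in the other 3 comparisons. That call held in 3 of 14 alternatives. It ended under RLE factors, upper quartile factors, a filter at 100 CPM, DESeq2, the replicate block and in 5 of the 7 fits that left out 1 library (log2 fold changes -0.45 to -0.22), and the sign turned under library totals (0.06). The level of miR-26a-5p sums 2 nearly equal precursor lines. For it and other miRNAs on more than 1 line (let-7a-5p, miR-138-5p, miR-19b-3p, miR-29b-3p and miR-181a-5p among those named), and for the library totals, the CPM is uncertain if each line held the full count.

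In neonatal VM against adult VM, 4 of the 7 tested EZH2-targeting miRNAs fell and 0 rose, with a median log2 fold change of -0.46 against -0.08 over all tested miRNAs, of which 30.9% were called lower and 22.9% higher. Beside miR-26a-5p these were miR-26b-5p (-0.76, edgeR adjusted p = 0.00421), which shares the seed of miR-26a-5p, miR-25-3p (-0.63, edgeR adjusted p = 0.00803) and let-7a-5p (-0.90, edgeR adjusted p = 0.00379). Under library totals alone 0 fell, 1 rose (miR-138-5p, 1.44) and the list's median was 0.05, so the direction holds relative to the centre that TMM sets. Without neonatal VM replicate 1, 1 of the 6 list members then tested fell, and without replicate 2, 2 of 6 fell. In neonatal TN against adult TN, 1 of 7 rose, miR-98-5p (1.20, edgeR adjusted p = 0.0146), a let-7 family member, beside 26.4% of all tested miRNAs called higher, and the list's median was -0.14 against 0.04. Without either adult TN library 0 of the list was called there.

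In adult VM against adult TN, 2 of 7 rose, miR-98-5p (1.61, edgeR adjusted p = 0.00231) and miR-26b-5p (0.69, edgeR adjusted p = 0.0119), and 0 fell, with a median of 0.52 against 0.09, beside 23.3% of all tested miRNAs called higher. That count was 4 under library totals and 0 without either adult TN library. In neonatal VM against neonatal TN, 0 of 7 were called, with a median of -0.09 against -0.11, beside 9.72% of all tested miRNAs called. That count was not 0 in 6 of 13 alternatives. MiR-138-5p (1.89, edgeR adjusted p = 0.0517) was called higher under RLE (1.96), library total (2.14) and upper quartile (2.27) scaling, with no filter (1.96) and without adult VM replicate 1 (1.89) or 2 (1.86), and without replicate 2 miR-25-3p and miR-26a-5p were called lower. In the interaction miR-98-5p alone was called (-1.66, edgeR adjusted p = 0.0438), beside 7.99% of all tested miRNAs, a call that ended in 8 of 13 alternatives, under RLE, library total and upper quartile scaling, at 100 CPM and without either adult TN or either neonatal VM library (-1.61 to -1.25). MiR-30d-5p was called in none of these comparisons. MiR-138-5p, at 2.16 to 14.8 CPM, was not called with TMM factors and the 10 CPM filter over all 7 libraries, but it was called higher in neonatal VM against adult VM under RLE (1.06), library total (1.44) and upper quartile (1.04) scaling.

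**Figure D4:**
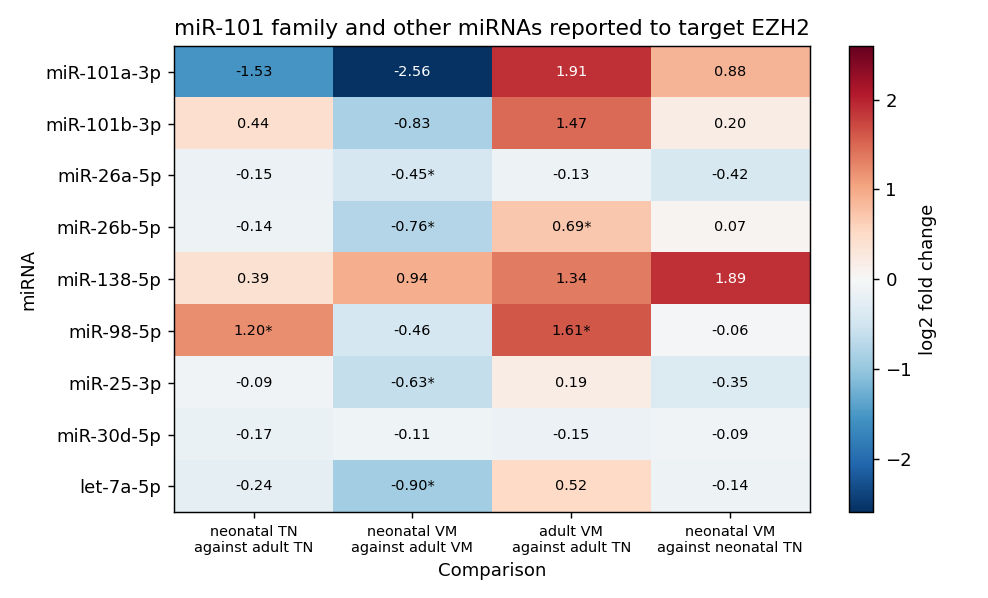
Log2 fold changes of the miR-101 members and the 7 tested miRNAs of the EZH2 list in the 4 comparisons, as colour and number; a star marks an edgeR adjusted p of at most 0.05 among the 7 listed miRNAs, and the members carry no stars. The column for neonatal VM against adult VM holds 4 stars, all on values below 0, and that for neonatal VM against neonatal TN holds 0.

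By Pearson's r of log2 CPM over the 7 libraries, among the 164 other miRNAs that averaged 50 CPM or more, different miRNAs followed each member. Closest to miR-101a-3p were miR-1843a-5p (r = 0.981), miR-155-5p (0.980), miR-29b-3p (0.977), let-7g-5p (0.972) and miR-26b-5p (0.959). MiR-155-5p, processed from an activation-induced transcript, stood at 322 and 294 CPM in neonatal VM, 206 CPM in neonatal TN, 907 and 1117 CPM in adult VM and 379.9 and 367 CPM in adult TN. Its groups took the same order as those of miR-101a-3p. MiR-29b-3p belongs to a family that restrains T-bet and interferon gamma in mouse T cells.

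Closest to miR-101b-3p were miR-30d-3p (r = 0.985), miR-19b-3p (0.970), miR-3068-3p (0.967), miR-19a-3p (0.965) and miR-30a-5p (0.962). MiR-19b-3p and miR-19a-3p are products of the miR-17 to miR-92a cluster, which promotes lymphocyte survival and proliferation. Because miR-19b-3p stands on more than 1 precursor line, its summed level cannot be credited to that cluster alone. MiR-19b-3p stood at 962 and 1019.5 CPM in neonatal VM, 818 CPM in neonatal TN, 1224 and 2091 CPM in adult VM and 758 and 737 CPM in adult TN. The members' own r with each other was 0.720. These values describe 7 libraries that share groups and scaling, and under library totals 4 of the 5 names remained for each member.

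As a description, miRNAs abundant in CD8 T cells (miR-150-5p, both miR-142a arms and miR-181a-5p) were summed. The sum was 162100 to 170710 CPM in neonatal VM and 282640 CPM in neonatal TN. In adult VM it was 338210 to 375740 CPM and in adult TN 494710 to 586290 CPM. It does not check the label of the cells, since miR-150-5p and miR-181a-5p within it themselves differed between the groups. Erythroid miR-451a stood at 2.87 and 5.93 CPM in neonatal VM, 9.65 CPM in neonatal TN and 2.14 to 3.11 CPM in adult cells. The 5 erythroid markers, led by miR-486a-5p and miR-486b-5p, summed to 156 to 178 CPM in neonatal VM, 446 CPM in neonatal TN, 494 to 593 CPM in adult VM and 243 to 325 CPM in adult TN. Counts of miR-486a-5p and miR-486b-5p were nearly equal in every library, so the sum may hold the same signal under both names. Myeloid miR-223-3p stood at 0.989 and 3.92 CPM in neonatal VM, 1.56 CPM in neonatal TN, 5.64 and 15.6 CPM in adult VM and 2.16 and 1.71 CPM in adult TN, so it was highest in the libraries where both members peaked. Stromal miR-143-3p stood at 31.6 and 43.9 CPM in neonatal VM and 67.2 CPM in neonatal TN, against 16.5 and 25.9 CPM in adult VM and 8.99 and 4.32 CPM in adult TN. The other stromal marker listed, miR-145a-5p, had 1 count in the neonatal TN library and 0 in every other library. The endothelial and progenitor pair of miR-126a arms summed to 54.4 to 75.8 CPM in neonatal VM, 56.9 CPM in neonatal TN, 21.7 to 26.3 CPM in adult VM and 8.09 to 8.99 CPM in adult TN. Hepatocyte miR-122-5p had 0 counts in 6 of 7 libraries. The part of these markers in the values of the members was not tested. In sorted bulk cells, fewer cells holding a miRNA and less of it per cell cannot be told apart.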

How the data were processed

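Per the labels' protocols, CD8+ T cells from spleens of gBT-I mice were enriched with beads, sorted by CD44 and CD122, and used for small RNA libraries (Illumina TruSeq). The authors deposited estimated counts per mature arm and precursor, 84.0% of the nonzero ones whole within 0.02. Per the submitters' processing notes the genome build is mm10; aligner and counter are not given in the sources used here. Counts were summed per mature name (85 names stood on more than 1 line, the members on 1 each) and rounded. Tested were those reaching 10 CPM in 2 or more of the 7 libraries (15.8 to 32.8 counts). TMM scaling and a cell means model with 3 residual degrees of freedom were fitted in edgeR 4.0.16 (R 4.3.3; quasi-likelihood test, robust, Benjamini-Hochberg over 288 miRNAs at 0.05). SE is the log2 fold change over the square root of its F. Log2 CPM used a prior count of 2. The fit was tested on simulated data.

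Named were the members, their other arms, miR-101c, miRNAs with ACAGUA in the seed, the 5 closest in pattern to each member, and the EZH2 list. Members, lists and tests were chosen with earlier results of these data known. Alternatives tried were scaling by RLE factors, library totals or upper quartiles, no filter, a 100 CPM filter, DESeq2 1.42.0, a replicate block and each library left out. Sequences are RefSeq (GRCm38.p6), host genes GENCODE M21. Figures used matplotlib 3.10.9. Reads and isomiRs were not analysed here.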

Additional observations from a re-analysis of the deposited data

Results flagged for a closer look

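For miR-101b-3p the neonatal libraries lay above the adult ones in TN and below them in VM, without a call in TN (log2 fold change 0.44, SE 0.30) and with a call in VM that ended in 4 of 14 alternatives. In neonatal TN it stood at 1152 CPM, above both adult TN libraries (882 and 814 CPM), and in neonatal VM at 1124 and 1515 CPM, below both adult VM libraries (1809.8 and 2899 CPM). The difference between the age effects equals the interaction, -1.28 (SE 0.38), and did not pass (edgeR adjusted p = 0.0587, range over alternatives 2.33e-05 to 0.393). It was below 0 in all 13 alternatives and rests on 1 neonatal TN library. As shares of all counts the VM libraries overlapped (0.144% and 0.193% neonatal, 0.166% and 0.256% adult). MiR-101a-3p was lower in neonatal cells of both subsets. No group had the 4 libraries needed to judge a single outlying library.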

How the results depend on the processing

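MiR-101a-3p and miR-101b-3p kept their direction in every comparison under every alternative run. For neonatal against adult TN, miR-101b-3p was called under library totals (0.80). For neonatal against adult VM it was not called under library totals (-0.32) or at 100 CPM (-0.62). For neonatal VM against TN, miR-101a-3p was called with upper quartile factors (1.26) and no filter (0.94). In the interaction both passed with no filter (-0.965 and -1.21). Leaving out 1 library gave, for miR-101a-3p, -1.72 to -1.56 (neonatal against adult TN), -2.92 to -2.04 (VM), 1.32 to 2.23 (adult VM against TN), 0.67 to 1.19 (neonatal VM against TN) and -1.35 to -0.46 (interaction), and for miR-101b-3p 0.26 to 0.41, -1.14 to -0.40, 0.97 to 1.74, 0.03 to 0.48 and -1.55 to -0.80. Each member stands on 1 precursor line, so the ratio taken from the largest line is the same value by construction and tests nothing. MiR-26a-5p in neonatal against adult VM turned to 0.0589 under library totals, which move the median of all miRNAs to 0.43.

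MiRNAs called numbered 138 for neonatal against adult TN (69 at 100 CPM, 83 to 179 with a library left out), 155 for VM (93 at 100 CPM, 106 to 171), 112 for adult VM against TN (23 to 142), 28 for neonatal VM against TN (52 with upper quartile factors, 53 with no filter, 16 to 77) and 23 for the interaction (43 with no filter, 38 with DESeq2, 6 to 86). A filter at 100 CPM left 153 miRNAs to test. Calls split as 76 higher and 62 lower in TN (106 and 38 under library totals, 56 and 79 with upper quartile factors), 66 and 89 in VM (117 and 49 under totals), 67 and 45 for adult subsets, 9 and 19 for neonatal subsets (21 and 14, and 38 and 14) and 5 and 18 for the interaction (6 and 14, and 18 and 12). The cause of these shifts was not tested. Without the neonatal TN library, comparisons that use it gave no value. Deviations of libraries with the same replicate number correlated weakly between groups (0.017, 0.14 and -0.16). Such values cannot show whether libraries with the same number share animals or a sort. With the replicate number as a block miR-101b-3p passed the interaction (-1.41) and no other call of the members changed. With 1 neonatal TN library and 3 residual degrees of freedom, small differences are not resolved.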
